A study of Drosophila mojavensis with 172 samples.

Results

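In Drosophila mojavensis, 80 of 14528 transcripts were taken as those with the clearest shared peak in late pupae and in newly eclosed females. They were chosen by their stage means of log2 signal over 13 life stages, with the 4 combinations of population and diet weighted equally. The margin of a transcript is the lower of its late pupal and 0-day means minus the highest mean among the other 11 stages. The 80 largest margins were taken among transcripts whose late pupal and 0-day means differed by under 1 log2 unit. In all, 837 transcripts had a margin above 0, and 799 of them met that limit. Margins of the 80 ran from 0.61 to 2.21, with a median of 0.80, and 18 were at least 1. The choice cut through a continuous distribution, so the 80 are not a separate class. The last transcripts inside, FBtr0170674 and FBtr0169599, both had margins of 0.606, and the first outside, FBtr0172581 and FBtr0173716, had 0.597 and 0.596.

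RNA from whole wild-type animals had been measured on 172 single-colour arrays. Flies came from Las Bocas in Sonora or from Punta Prieta in Baja California, and were raised on laboratory medium prepared with either agria or organ pipe cactus. Stages were 6-hour eggs (E6), from mothers raised on the given diet, larval instars 1 to 3 (L1, L2, L3), early and late pupae (EP, LP), and adult females of 0, 3, 4, 6, 10, 14, 18 and 24 days (0D to 24D). Sex is not given before the adult stage, so a difference in sex cannot be told apart from stage between pupae and adults. Late pupae had 2 arrays of Las Bocas on agria, 1 of Las Bocas on organ pipe, 4 of Punta Prieta on agria and 4 of Punta Prieta on organ pipe. The 0-day females had 4, 4, 5 and 5 arrays in the same order. The 3-day females had 4, 4, 3 and 4, the 6-day females 3, 2, 5 and 4, and the 10-day females 4, 2, 4 and 2. The labels do not tie replicates to separate cultures. The p-values therefore cover the spread between these arrays, which may be technical.

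As background, a late pupa is a nearly finished adult still enclosed in the puparium. Adult cuticle, flight muscle, eyes and nervous system are completed there, and eclosion releases a fly that expands its wings and hardens and tans its cuticle within hours. The first days of adult life bring the loss of remaining larval tissue and, in females, the growth of the ovaries. Agria and organ pipe are columnar cacti whose rotting tissue feeds the larvae of this species. Agria is the usual host in Baja California and organ pipe the usual host on the Sonoran mainland. The array IDs were not paired with gene names (0 IDs matched the annotation table given with the data), so transcripts are named by ID and no gene function, sequence or marker list is given. In whole animals, fewer cells of a type and less RNA per cell cannot be told apart.

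Of the arrays at the peak stages, 3 lay apart from their stage over the transcripts outside the group. Replicate 2 of Punta Prieta late pupae on agria correlated at 0.951 with the early pupal mean and at 0.736 with the late pupal mean. Replicate 3 of the same group correlated at 0.912 with first-instar larvae and at 0.595 with late pupae. Replicate 4 of Las Bocas 0-day females on agria correlated at 0.881 with second-instar larvae and at 0.823 with 0-day females. Over the whole series 13 arrays lay nearer another stage by over 0.05, of which 10 were larval. Values without the 3 arrays are given beside the main values they bear on.

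Over the life cycle the group was at its lowest in eggs, level through larval life, and high only around eclosion. Its mean log2 signal was 9.99 in eggs, 10.98, 11.07 and 10.98 in the 3 larval instars and 11.18 in early pupae. It was 12.79 in late pupae and 12.76 in 0-day females. In adults of 3, 6 and 10 days it was 11.55, 11.01 and 10.76, and in those of 14, 18 and 24 days 10.68, 10.55 and 10.61. The group thus stood lower in old females than in larvae. These stage means chose the transcripts and are given as description, without a test.

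**Figure D1:**
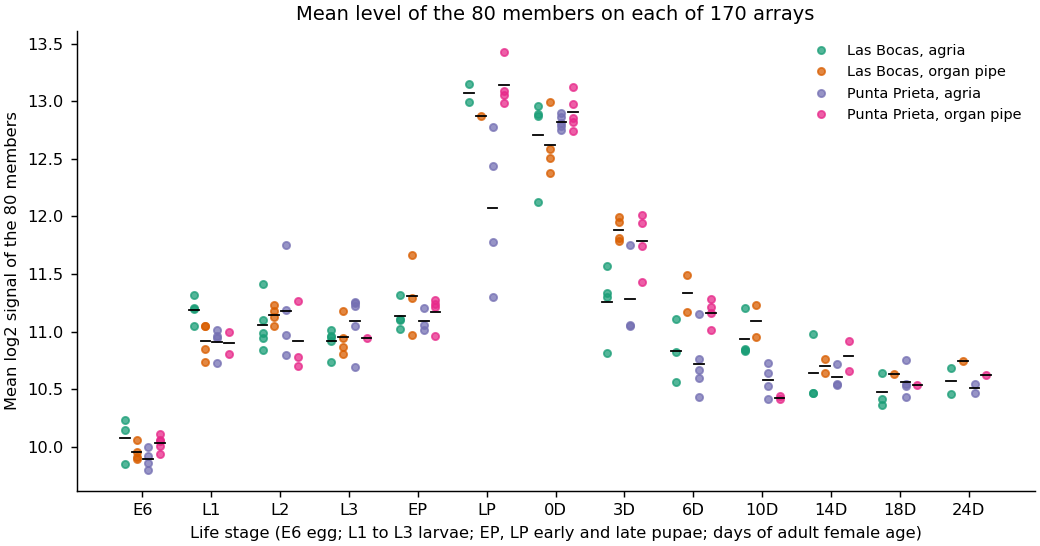
Mean log2 signal of the 80 transcripts (vertical axis) on each of 170 arrays of 13 stages (horizontal axis), coloured by population and diet, with a bar at each group mean. Late pupal and 0-day arrays lie highest, except 2 late pupal arrays of Punta Prieta on agria at 11.30 and 11.78, and 3-day arrays spread from 10.82 to 12.02.

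On single arrays the mean of the 80 ran from 11.30 to 13.43 in late pupae (median 12.98) and from 12.13 to 13.13 in 0-day females (median 12.83). Early pupal arrays ran from 10.96 to 11.67, so they overlapped the late pupal range only through replicate 3 of Punta Prieta on agria. The 3-day arrays, from 10.82 to 12.02, lay below every 0-day array. The 6-day arrays ran from 10.43 to 11.49. Between early and late pupae the 80 transcripts differed by a median of 1.46 log2 units, with a range from 0.63 to 3.48, against -0.11 over all transcripts, and 66 differed by at least 1. The median was 1.58 without the arrays that lay apart, and 72 then differed by at least 1. From 0 to 3 days the median loss was 0.96, with a range from 0.61 to 3.50, against 0.05 over all transcripts, and 38 lost at least 1, or 1.00 and 40 without those arrays. The choice sets each of these differences and losses at no less than the transcript's margin. The contrast with all transcripts therefore follows from the choice. By 3 days the median transcript had completed 55.5% of its loss between 0 and 24 days. Stage means came down at each of the steps from 0 to 3, 6 and 10 days in 70 of the 80.

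The sharpest profile was that of FBtr0163375. Its level was 10.63 on the lowest, 11.47 on the median and 13.60 on the highest early pupal array. In late pupae these values were 14.62, 14.76 and 15.25, and in 0-day females 13.79, 14.29 and 14.71. Every peak array thus exceeded every early pupal array, including the 3 that lay apart. At 3 days the values were 9.93, 10.71 and 11.57, which is below the second- and third-instar means of 11.99 and 12.03. FBtr0169359 had the second largest margin, 1.98, with a wide spread at the peak. Its late pupal arrays ran from 9.63 to 14.26 (median 12.18) and its 0-day arrays from 10.32 to 13.17 (median 12.23). Early pupal arrays ran from 8.59 to 9.73 (median 9.41) and 3-day arrays from 9.12 to 10.20 (median 9.63). The lowest late pupal array of this transcript therefore overlapped the early pupal range, while no 0-day array overlapped the 3-day range.

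The height of the plateau differed widely between transcripts, although signals of different probes are not compared here as amounts of RNA. FBtr0163407 and FBtr0170100 were the brightest. FBtr0170100 had late pupal arrays from 13.48 to 15.31 and 0-day arrays from 15.28 to 15.57. The brightest value in the data was 15.93. By 6 days the level of FBtr0170100 was 10.64 ± 0.46 (SD, n = 14), and by 10 days 10.28 ± 0.16 (n = 12). FBtr0163407 declined less, from 15.04 ± 0.21 (n = 18) at 0 days to 14.08 ± 0.28 (n = 15) at 3 days and 12.52 ± 0.66 (n = 12) at 10 days. The dimmest were FBtr0172183 and FBtr0175426. FBtr0172183 had 0-day arrays from 9.40 to 10.68 (median 10.23) and early pupal arrays from 8.64 to 9.50 (median 8.99), so the 2 stages overlapped narrowly.

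Late pupal and 0-day levels were close by construction, yet the transcripts leaned either way within the limit of 1. Late pupae were higher for 48 and 0-day females for 32, with a median difference of 0.06, and 40 of the 80 lay within 0.25. The 2 largest late pupal excesses were those of FBtr0162212 (0.79) and FBtr0161727 (0.75). The 2 largest 0-day excesses were those of FBtr0170092, at a late pupal minus 0-day difference of -0.95, and FBtr0163448, at -0.91. FBtr0163448 ran from 10.36 to 14.31 in late pupae (median 11.73) and from 12.14 to 14.07 in 0-day females (median 12.90), so its late pupal arrays spanned the whole 0-day range. FBtr0170092 also had high early pupal levels, 12.18 ± 0.77 (n = 14), against 12.81 ± 1.30 (n = 11) in late pupae and 13.77 ± 0.41 (n = 18) at 0 days. Without the 3 arrays that lay apart, all 80 margins stayed above 0 (median 0.87), late pupae were higher for 52, the median difference was 0.17 and 1 transcript passed the limit of 1.

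**Figure D2:**
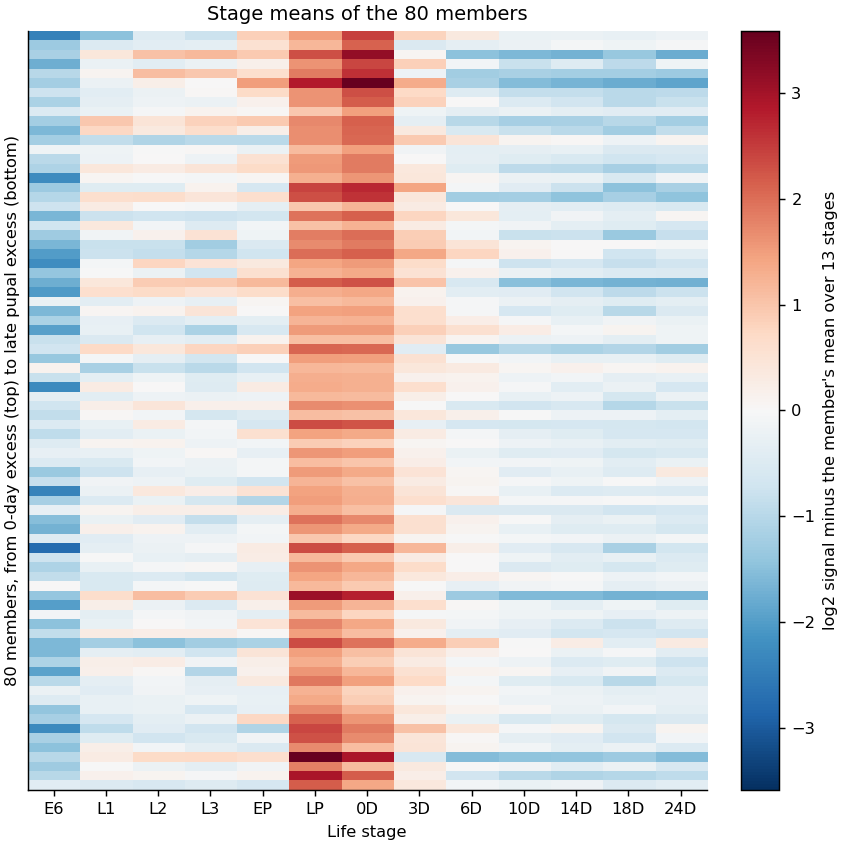
Stage means of the 80 transcripts (rows) over 13 stages (columns), as log2 signal minus the transcript's own mean over the stages, ordered from the largest 0-day excess at the top to the largest late pupal excess at the bottom. The 2 peak columns are red throughout, the egg column is mostly blue, and the 3-day column is mostly pale red.

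Outside the peak the profiles varied. The next highest stage was 3 days for 50 transcripts, early pupae for 13, a larval instar for 16 (8 at L2, 4 at L3 and 4 at L1) and eggs for 1. The lowest stage was the egg for 54 and 18 days for 12. Early pupae lay above third-instar larvae for 54 transcripts, and 24-day females lay below early pupae for 58. The larval mean lay above the egg mean for 74. The span between the highest and the lowest stage mean had a median of 3.10, against 1.97 over all transcripts, and the choice itself favours wide spans.

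The peak was not equally clear in each combination of population and diet. Taken alone, Punta Prieta on organ pipe gave a margin above 0 for 80 transcripts (median 0.76) and Las Bocas on agria for 74 (median 0.85). Las Bocas on organ pipe gave 59 (median 0.37) and Punta Prieta on agria 64 (median 0.40). In 42 transcripts the margin was above 0 in all 4 combinations, in 33 in 3 of them and in 5 in 2. On organ pipe the next highest stage was 3 days for 56 transcripts in each population, while on agria it was 3 days for 16 in Las Bocas and 27 in Punta Prieta. The low margins of Punta Prieta on agria go with the 2 late pupal arrays that lay apart. In Las Bocas on organ pipe the mean of the 80 was 12.87 in late pupae (1 array), 12.62 at 0 days and 11.88 at 3 days. In Punta Prieta on organ pipe these means were 13.14, 12.90 and 11.78. Without the arrays that lay apart, Punta Prieta on agria gave 74 (median 0.89) and Las Bocas on agria 75 (median 0.98). What lowers the margins of Las Bocas on organ pipe was not tested.

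The 4-day females were not used to choose the transcripts and comprise 1 array for each diet in Punta Prieta. They were left out of the tests, and their values are a description. On agria the mean of the 80 was 10.49 at 4 days, against 12.82 ± 0.06 (n = 5) at 0 days, 11.29 ± 0.40 (n = 3) at 3 days and 10.72 ± 0.27 (n = 5) at 6 days. On organ pipe it was 10.68, against 12.90 ± 0.15 (n = 5), 11.78 ± 0.26 (n = 4) and 11.17 ± 0.11 (n = 4). Both arrays thus lay below the 6-day mean of their diet. The decline of at least 1 log2 unit from the 0-day mean was seen on the agria array for 80 transcripts, against 12.3% of all transcripts, and on the organ pipe array for 76, against 12.7%. For all 80, both arrays lay below every 0-day array of the same population and diet, as did 30.8% of all transcripts on agria and 37.0% on organ pipe. The 0-day arrays that these values are set against also entered the choice.

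Diet and population differences within a stage were not used to choose the transcripts. A diet effect is given as organ pipe minus agria and a population effect as Punta Prieta minus Las Bocas, each averaged over both levels of the other factor. They were tested with limma over all 14528 transcripts, and a transcript was called where the Benjamini-Hochberg adjusted p was under 0.05, with no limit on size.

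In late pupae 5 of the 80 transcripts were higher on organ pipe and 0 lower, against 1.7% of all transcripts called higher and 7.72% called lower. The median diet effect was 0.43 and 75 of 80 were positive, against a median of -0.00 over all transcripts. Without the arrays that lay apart the median was 0.14 and 65 were positive. FBtr0161575 ran from 11.63 to 13.91 on organ pipe (median 13.59, n = 5) and from 10.09 to 14.43 on agria (median 10.59, n = 6). The agria arrays spanned the whole organ pipe range, and the difference was 1.80 (SE 0.39, adjusted p = 0.00372). FBtr0172183 ran from 9.95 to 11.88 on organ pipe and from 9.11 to 11.26 on agria, with a difference of 1.09 (SE 0.30, adjusted p = 0.0151). The others were FBtr0162352 (1.00), FBtr0173089 (0.92) and FBtr0172603 (0.81), named because the count is small, and their groups overlapped too. Without the arrays that lay apart, limma called 0 of the 80 and 0.0206% of all transcripts, so the calls were lost throughout. Of the 80, 3 then had an unadjusted p under 0.05. Array weights on all arrays called 9, a count given without the share of all transcripts. With the spread taken from late pupal arrays alone, 0 of the 80 and 0% of all transcripts were called. Within groups the median SD of the 80 was 0.679 in late pupae against 0.412 over all stages. FBtr0161575 without the arrays that lay apart had 1.25 (adjusted p = 0.233) and FBtr0172183 0.84 (adjusted p = 0.333).

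**Figure D3:**
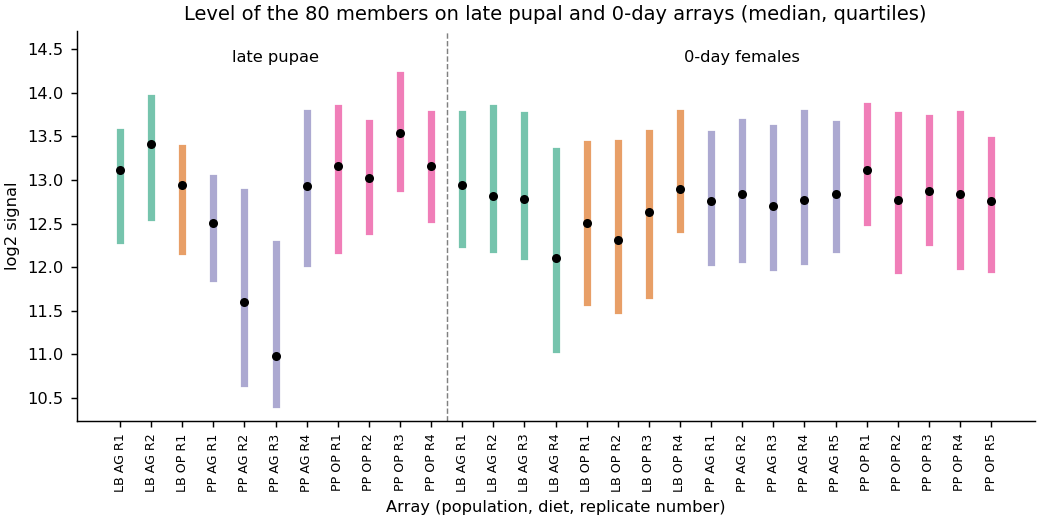
Median (points) and quartiles (bars) of the log2 signal of the 80 transcripts on each late pupal and 0-day array, labelled by population (LB Las Bocas, PP Punta Prieta), diet (AG agria, OP organ pipe) and replicate number. Replicates 2 and 3 of Punta Prieta late pupae on agria and replicate 4 of Las Bocas 0-day females on agria have the lowest medians of their stages.

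The late pupal difference was seen in Punta Prieta. There the mean of the 80 was 12.44, 11.78, 11.30 and 12.78 on the 4 agria arrays and 12.98, 13.05, 13.43 and 13.09 on the 4 organ pipe arrays, so the diets did not overlap. In Las Bocas it was 12.99 and 13.15 on agria and 12.87 on the single organ pipe array. In Punta Prieta alone 64 of the 80 were higher on organ pipe, with a median of 1.08, against 25% of all transcripts. In Las Bocas alone limma called 0 of the 80, with 10 at an unadjusted p under 0.05 and a median of -0.19, and 0.0688% of all transcripts were called. The difference between the populations was tested as an interaction and was positive for 25 of the 80 and negative for 0, with a median of 1.18, against 5.07% of all transcripts. Its Las Bocas side rests on the 1 organ pipe array, which is assumed to vary like the other groups, and so do the calls left below. The counts in Punta Prieta and in the interaction use the spread of all stages, and late pupal spread alone was not tried for them. These counts also rest on replicates 2 and 3 of Punta Prieta on agria, which lay nearer early pupae and first-instar larvae. Replicate 3 was the lowest of its group in 53 of the 80 transcripts and replicate 2 in 19, against 18.4% and 12.9% of all transcripts. Without the arrays that lay apart, 8 were called in Punta Prieta (median 0.50), against 1.79% of all transcripts, and the interaction was called for 7, against 1.5%.

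Few population effects were called at the peak. In late pupae 1 transcript was lower in Punta Prieta and 0 higher, against 0.441% and 2.14% of all transcripts. The median was -0.35, and 15 of the 80 had an unadjusted p under 0.05, or 5 without the arrays that lay apart. The median was -0.10 without the arrays that lay apart, and 24 of 80 were positive in place of 8. With the spread of late pupal arrays alone 0 were called. FBtr0166271 ran from 9.79 to 12.04 in Punta Prieta (median 11.26, n = 8) and from 11.39 to 12.37 in Las Bocas (median 11.68, n = 3), a difference of -0.81 (SE 0.24, adjusted p = 0.0459). The populations overlapped, and without the arrays that lay apart the difference was -0.48 (adjusted p = 0.377). On agria alone 45 were lower in Punta Prieta, against 8.3% of all transcripts, and 4 without those arrays, against 0.509%.

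At 0 days no transcript of the group was called by diet. The mean of the 80 was 12.96, 12.89, 12.87 and 12.13 on the Las Bocas agria arrays and 12.51, 12.38, 12.59 and 12.99 on the Las Bocas organ pipe arrays. Punta Prieta arrays ran from 12.75 to 12.90 on agria and from 12.74 to 13.13 on organ pipe. Diets overlapped in both populations. With limma 0 of the 80 were called and 0 had an unadjusted p under 0.05, against 0.00688% of all transcripts called higher. Array weights called 2 lower, a count given without the share of all transcripts. The median diet effect was -0.02. Without the arrays that lay apart it was -0.10, and 0 of the 80 and 0% of all transcripts were called. Replicate 4 of Las Bocas on agria, at 12.13, was the lowest of its group for 71 of the 80, against 48.5% of all transcripts. Between populations 1 transcript was higher in Punta Prieta and 0 lower, against 1.04% and 1.44%. The median population effect was 0.19, against 0.03 over all transcripts. It was positive for 68 of the 80, and 17 had an unadjusted p under 0.05. Without the arrays that lay apart the median was 0.12, with 57 positive and 6 at an unadjusted p under 0.05. FBtr0163038 ran from 11.00 to 11.83 in Punta Prieta (median 11.31, n = 10) and from 9.83 to 11.24 in Las Bocas (median 10.81, n = 8), a difference of 0.62 (SE 0.16, adjusted p = 0.0181). The populations overlapped, and without replicate 4 of Las Bocas on agria the difference was 0.50 (adjusted p = 0.152). The population effect at 0 days minus that in late pupae was positive for 4 of the 80, against 1.54%. Without the 3 arrays it was called for 0 of the 80 and 0.406% of all transcripts. The 4 on all arrays were FBtr0174438 (1.39), FBtr0164092 (1.06), FBtr0166271 (1.00) and FBtr0165062 (0.92), named because the count is small.

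At 3 days after eclosion the group stood higher in females on organ pipe. On agria the mean of the 80 was 11.34, 10.82, 11.30 and 11.57 in Las Bocas and 11.75, 11.05 and 11.06 in Punta Prieta. On organ pipe it was 11.78, 11.95, 11.99 and 11.81 in Las Bocas and 12.02, 11.43, 11.75 and 11.94 in Punta Prieta. The diets did not overlap in Las Bocas and overlapped in Punta Prieta, where the highest agria array lay within the organ pipe range. Over the transcripts outside the group, the other stage that correlated best was 6 or 10 days for every agria array. On organ pipe it was 0 days for replicates 2 and 3 of Las Bocas and replicate 4 of Punta Prieta, and 6 days for the rest. The group declines with age, and whether the diet difference goes with this shift was not tested. Higher calls on organ pipe numbered 36 of the 80 and lower calls 0, against 7.23% and 4.58% of all transcripts. The median diet effect was 0.55 against -0.02 over all transcripts, and 79 of 80 were positive.

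FBtr0167014 showed the largest 3-day difference among those called. It ran from 11.70 to 12.64 on organ pipe (median 11.93, n = 8) and from 10.06 to 11.65 on agria (median 10.92, n = 7). The diets did not overlap, and the difference was 1.11 (SE 0.24, adjusted p = 0.000758). FBtr0166660 followed, from 11.87 to 12.77 on organ pipe (median 12.09) and from 10.37 to 11.79 on agria (median 11.16), again without overlap, with a difference of 1.10 (SE 0.23, adjusted p = 0.000651). These were the 2 of the 80 whose diets did not overlap, against 0.33% of all transcripts. The transcript with the next ID, FBtr0166659, differed by 0.84 (SE 0.22, adjusted p = 0.00659). FBtr0166659 and FBtr0166660 had a Pearson correlation of 0.947 over 170 arrays, across stages, with a median difference of 0.22 between their levels. Among 14234 pairs of consecutive IDs in the data the median correlation was 0.203, and 3.88% exceeded 0.9. Whether their probes share sequence was not examined here, so the pair may not be 2 independent measurements. The other consecutive pair in the group, FBtr0172416 and FBtr0172417, had 0.577.

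**Figure D4:**
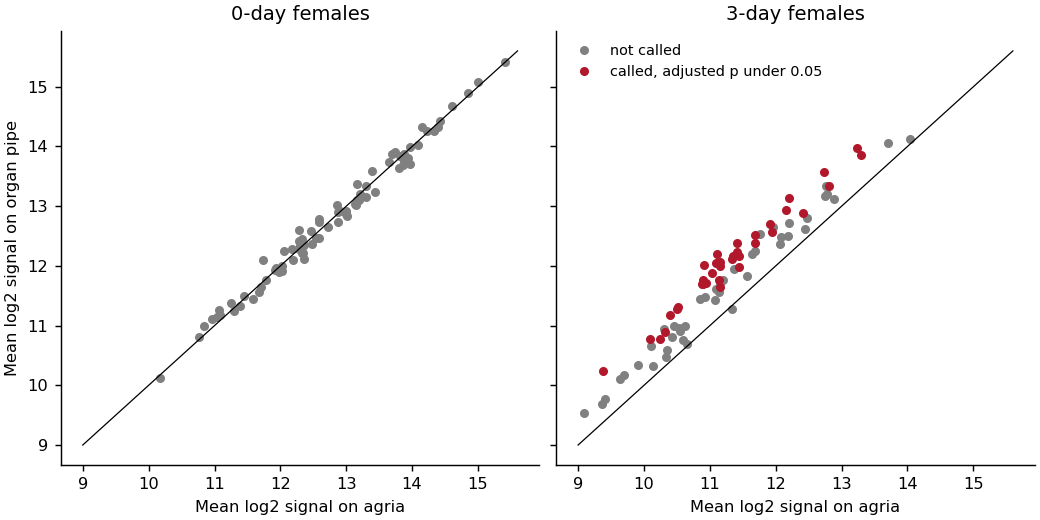
Mean log2 signal on organ pipe (vertical axis) against agria (horizontal axis) for the 80 transcripts in 0-day (left) and 3-day (right) females, with the line of equality. At 0 days the points lie on the line and at 3 days 79 differences favour organ pipe, with the 36 called transcripts in red.

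By population, 20 of the 80 were higher on organ pipe in Las Bocas at 3 days, against 4.46% of all transcripts, and the effect was positive for 80 of 80 with a median of 0.61. In Punta Prieta limma called 0 of the 80 and 0% of all transcripts, with 28 of the 80 at an unadjusted p under 0.05, 78 positive and a median of 0.51. The interaction with population was called for 0 of the 80, against 0.0206% of all transcripts. Its median was -0.12, and 0 of the 80 had an unadjusted p under 0.05. The count at 3 days depended on single arrays. It was 13 without replicate 2 and 14 without replicate 3 of Punta Prieta on agria, 21 without replicate 2 of Las Bocas on agria, and 23 without replicate 1 of Punta Prieta on organ pipe. The median effect stayed between 0.47 and 0.69 under each alternative tried. Quantile normalization gave a count of 21, and array weights gave 70. These counts stand without the share of all transcripts called under each setting, which can move as well.

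The decline from 0 to 3 days shows the same difference from the other side. Its median in Las Bocas was 1.17 on agria and 0.58 on organ pipe. In Punta Prieta agria gave 1.36 and organ pipe 0.93. A loss of at least 1 was seen for 54 and 22 of the 80 in Las Bocas on agria and on organ pipe, against 3.84% and 2.07% of all transcripts. In Punta Prieta it was seen for 73 and 35, against 4.8% and 2.44%. Without replicate 4 of Las Bocas 0-day females on agria, the median there was 1.43 and 71 lost at least 1. These shares follow from the choice of the transcripts, so nothing is read from them beyond the diets' own values. By 3 days the group mean had completed 81.8% of its loss between 0 and 10 days in Las Bocas on agria and 68.4% in Punta Prieta on agria, against 48.0% and 45.2% on organ pipe.

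The diet effect at 3 days minus that at 0 days was tested directly, and it uses the same 3-day arrays as the comparison above. It was positive for 10 of the 80 and negative for 0, against 1.51% and 0.902% of all transcripts, with a median of 0.53 and 77 of 80 above 0. FBtr0167014 had 1.28 (SE 0.33, adjusted p = 0.0164) and FBtr0166660 had 1.26 (SE 0.32, adjusted p = 0.0150). In Las Bocas alone 4 were called, against 0.365% of all transcripts: FBtr0167014 (1.68), FBtr0166659 (1.59), FBtr0167566 (1.27) and FBtr0165062 (1.18), named because the count is small. In Punta Prieta 0 of the 80 and 0% of all transcripts were called, with 9 of the 80 at an unadjusted p under 0.05 and a median of 0.44. Without the late pupal and 0-day arrays that lay apart 24 were called, with a median of 0.67. Among all transcripts 438 were then called higher, in place of 219. The counts without single arrays that follow stand without the share of all transcripts called, which can move as well. Without replicate 4 of 0-day Las Bocas on agria alone 18 were called. Leaving out one 3-day array gave 25 without replicate 1 of Punta Prieta on agria, 1 without its replicate 2 and 1 without its replicate 3. It gave 4 without replicate 2 of Las Bocas on agria, 5 without replicate 3 of Las Bocas on organ pipe and 6 without replicate 1 or 4 of Punta Prieta on organ pipe. Leaving out one 0-day array gave 6 without replicate 3 of Las Bocas on agria, without replicate 1, 2 or 3 of Las Bocas on organ pipe, or without replicate 2 of Punta Prieta on either diet, and 17 without replicate 4 of Las Bocas on organ pipe.

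At 6 days the difference between the diets was still present. On agria the mean of the 80 was 11.11, 10.57 and 10.82 in Las Bocas and from 10.43 to 11.16 in Punta Prieta (median 10.66, n = 5). On organ pipe it was 11.17 and 11.49 in Las Bocas and 11.16, 11.01, 11.21 and 11.28 in Punta Prieta. The diets did not overlap in Las Bocas, and in Punta Prieta 1 agria array reached the organ pipe range. Outside the group, the other stage that correlated best was 10 days or later for the agria arrays, except 3 days for replicate 4 of Punta Prieta. On organ pipe it was 3 days in Las Bocas and for replicates 3 and 4 of Punta Prieta, and 24 days for its replicates 1 and 2. Whether the diet difference goes with this was not tested. In all 15 of the 80 were higher on organ pipe and 0 lower, against 2.55% and 0.909% of all transcripts, with a median of 0.46 against -0.06 and 74 of 80 positive. Of the transcripts called, 11 were called at both 3 and 6 days and 40 at one or both. The 2 ages share no arrays, but both comparisons use the same estimate of spread for each transcript. The share of all transcripts called at both ages was not computed, so nothing is read from this overlap.

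FBtr0174003 ran from 11.62 to 13.27 on organ pipe at 6 days (median 12.34, n = 6) and from 10.84 to 11.64 on agria (median 11.57, n = 8). The diets overlapped barely, and the difference was 1.08 (SE 0.16, adjusted p = 8.55e-06). FBtr0170688 ran from 12.48 to 13.05 on organ pipe (median 12.70) and from 11.13 to 12.52 on agria (median 11.43), also with a narrow overlap, and differed by 1.08 (SE 0.23, adjusted p = 0.00197). The diets did not overlap for FBtr0169567, FBtr0173089 and FBtr0165062, 3 of the 80 against 0.661% of all transcripts, named because the count is small. In Las Bocas alone 1 was called, FBtr0174003 at 1.48, against 0.0344% of all transcripts. In Punta Prieta 0 of the 80 were called, against 0.0275% of all transcripts called, and 33 of the 80 had an unadjusted p under 0.05. The median was 0.47 in each population. The count was 2 without replicate 2 and 9 without replicate 3 of Las Bocas on agria, 27 without its replicate 1, and 2 without replicate 2 of Las Bocas on organ pipe. It was 6, 8 and 28 without replicates 1, 3 and 4 of Punta Prieta on agria and 9 without replicate 4 of Punta Prieta on organ pipe. With the spread taken from 6-day arrays alone 1 was called. The shares of all transcripts called under these alternatives are not given and can move as well.

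This behaviour was shared with other transcripts that decline after eclosion. From 0 to 10 days, where the choice itself requires a loss, 76 of the 80 had lower stage means by at least 1, against 8.43% of all transcripts. Outside the group 1148 transcripts did so. Of these, 421 (36.7%) were higher on organ pipe at 3 days and 1 lower, with a median of 0.46, beside 45% of the 80 and a median of 0.55. At 6 days 244 (21.3%) of them were higher, with a median of 0.46, beside 18.8% of the 80 and a median of 0.46. Whether the 80 differ from them was not tested.

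**Figure D5:**
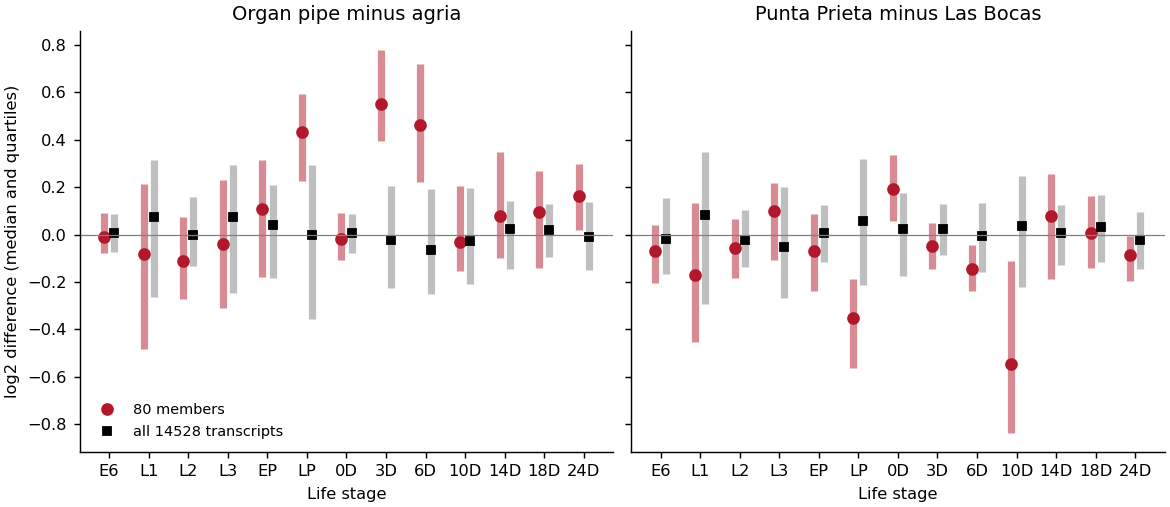
Median (points) and quartiles (bars) of the log2 difference between diets (left) and between populations (right) at 13 stages, for the 80 transcripts (red) and for all 14528 transcripts (grey, black squares). The medians of the 80 leave those of all transcripts most at 3 days, 6 days and in late pupae for diet, and at 10 days and in late pupae for population.

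At other stages the diet effect in the group had medians between -0.11 and 0.16. In first-instar larvae 2 were higher and 13 lower on organ pipe, against 2.75% and 12.4% of all transcripts. In early pupae 6 were higher and 1 lower, against 0.502% and 1.38%, with 22 at an unadjusted p under 0.05. The early pupal differences ran from -0.78 to 1.61, a wider range than the -0.08 to 1.11 at 3 days. In second-instar larvae 1 was higher, FBtr0174576 (1.14), against 0.544%. In third-instar larvae 3 were lower, against 5.38%: FBtr0172093 (-1.43), FBtr0170688 (-0.79) and FBtr0174035 (-0.75). At 10, 14, 18 and 24 days limma called 0 of the 80, and 4, 10, 1 and 1 had an unadjusted p under 0.05. Among all transcripts 0.179%, 0%, 0.00688% and 0.00688% were called at these ages, where organ pipe had 1 or 2 arrays per population.

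Between populations, no 3-day difference was called in the group. With limma 0 of the 80 were called, against 0.358% of all transcripts, and 0 of the 80 had an unadjusted p under 0.05. Array weights gave 10 called lower in Punta Prieta, a count given without the share of all transcripts. The median was -0.05. At 10 days, a comparison added after the data were seen, the group was lower in Punta Prieta. The mean of the 80 was 10.84, 10.83, 10.85 and 11.21 on agria and 11.23 and 10.95 on organ pipe in Las Bocas. In Punta Prieta it was 10.41, 10.53, 10.64 and 10.73 on agria and 10.42 and 10.44 on organ pipe. Every Punta Prieta array lay below every Las Bocas array. Over the transcripts outside the group, the other stage that correlated best was 18 or 24 days for every Punta Prieta array. For the Las Bocas arrays it was 3, 6 or 14 days. The group declines with age, and whether the population difference goes with this shift was not tested. Lower calls numbered 30 of the 80 and higher calls 0, against 9.59% and 11.4% of all transcripts, with a median of -0.55 against 0.04.

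At 10 days FBtr0163453 ran from 11.09 to 12.02 in Punta Prieta (median 11.32, n = 6) and from 11.56 to 13.39 in Las Bocas (median 12.45, n = 6). The populations overlapped, and the difference was -1.29 (SE 0.24, adjusted p = 5.03e-05). FBtr0163412 ran from 10.19 to 10.94 in Punta Prieta and from 10.76 to 12.38 in Las Bocas, a difference of -1.20 (SE 0.37, adjusted p = 0.0118). For 8 of the 80 the populations did not overlap, all lower in Punta Prieta, against 3.73% of all transcripts. By diet 4 were lower on agria, against 2.97%, and 14 on organ pipe, against 2.93%. Without replicate 1 of Las Bocas on organ pipe, which correlated at 0.951 with the 3-day mean and at 0.919 with its own stage, 10 were called, with a median of -0.50. At the neighbouring ages of 6 and 14 days limma called 0 of the 80, against 0.151% and 0.0964% of all transcripts. The medians were -0.14 and 0.08, and 2 of the 80 at each age had an unadjusted p under 0.05. Whether the population effect differs between these ages was not tested.

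Over all stages together, replicates of the group were more variable than those of the typical transcript. The median SD within groups of population, diet and stage was 0.412 for the 80 and 0.356 for all transcripts. It was 0.679 against 0.585 in late pupae, 0.319 against 0.276 at 0 days and 0.356 against 0.253 at 3 days. In third-instar larvae there was no excess, at 0.376 against 0.377. The late pupal and 0-day values include the 3 arrays that lay apart.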

How the data were processed

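RMA-processed log2 values were deposited by the authors as 1 table, from Cy3-labelled cDNA on 1-colour NimbleGen arrays, per the labels' protocols and the submitters' processing notes. Neither the RMA version nor the set of arrays normalized together is given in the sources. Deposited log2 values ran from 7.25 to 15.93, and array medians from 10.96 to 11.48. No separate background signals were used here. The number of arrays limits the precision. Groups (54, of which 8 have 1 array) are population, diet and stage from the labels. The 14-day Las Bocas array on agria numbered 1 has 1 label that says 10 days, and it was kept at 14.

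Limma 3.58.1 in R 4.3.3 (lmFit, eBayes) fitted 1 mean per group to all 172 arrays, with 118 residual degrees of freedom and Benjamini-Hochberg adjustment over 14528 transcripts within each contrast. Single-array groups take the shared spread. Means and counts used Python 3.11.15. The members and lists were chosen with earlier results of these data known. The rule for named transcripts took the 2 highest and 2 lowest in margin, in level, in late pupal minus 0-day difference and among the calls of each comparison; others are said to be named for a small count. Gene lists and cell type markers could not be run without gene names. Alternatives were median centring, quantile normalization, a filter on the dimmest 25% of transcripts, array weights (whose fit stopped before converging), a replicate block, own-stage spread, 1 population or diet alone, and arrays left out. The steps were tested on simulated data.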

Additional observations from a re-analysis of the deposited data

Results flagged for a closer look

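In 84 values of groups of at least 4 arrays, 3 arrays stood far from the rest of their group, and chance flags about 1 in 20 groups. The mean of the 80 transcripts was 12.13 on replicate 4 of Las Bocas 0-day females on agria, against 12.87 to 12.96 on the others. It was 11.21 on replicate 4 of Las Bocas 10-day females on agria, against 10.83 to 10.85, and without that array 26 transcripts were called in the population comparison at 10 days in place of 30. FBtr0163375 had 9.61 on replicate 3 of Punta Prieta eggs on agria, against 10.26 to 10.31.

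Differences between effects passed the test in 3 cases. The diet effect at 3 days differed from that at 0 days for 10 of the 80 transcripts. The diet effect in late pupae differed between populations for 25, and for 7 without the arrays that lay nearer another stage. The population effect differed between 0 days and late pupae for 4, and for 0 without those arrays.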

How the results depend on the processing

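Counts of the 80 transcripts called in limma moved with the settings. They stand without the share of all transcripts called under each setting, which can move as well. The diet effect in late pupae (5) was 8 after centring on array medians, 9 after quantile normalization, 3 with the dim filter, 9 with array weights, 0 with own-stage spread or without the arrays nearer another stage, 0 in Las Bocas, 64 in Punta Prieta, and 1 to 18 without single arrays. The diet effect at 0 days (0) was 2 with array weights. At 3 days (36) it was 21 with quantile normalization, 70 with array weights, 20 in Las Bocas, 0 in Punta Prieta and 13 to 52 without single arrays. At 6 days (15) these values were 6, 42, 1, 0 and 2 to 28, with 1 under own-stage spread. The 3-day minus 0-day diet effect (10) was 4 with quantile normalization, 67 with array weights, 27 with own-stage spread, 18 without the 0-day array nearer another stage, 4 in Las Bocas, 0 in Punta Prieta and 1 to 25 without single arrays.

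The population effect in late pupae (1 lower) was 0 with the dim filter, array weights, own-stage spread or without the arrays nearer another stage, 45 on agria and 0 to 7 without single arrays; on organ pipe it reversed, with 1 higher (FBtr0172739). At 0 days (1) it was 0 with quantile normalization, the dim filter, own-stage spread, without the array nearer another stage or on organ pipe, 15 with array weights, 2 on agria and 0 to 4 without single arrays. At 3 days (0) it was 10 with array weights, and at 10 days (30) 4 on agria, 14 on organ pipe and 10 to 32 without single arrays. The cause was not tested. The single-population and single-diet comparisons also rest on fewer arrays.

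The median effect kept its sign under every alternative for diet at 3 days (0.47 to 0.69), at 6 days (0.35 to 0.58) and at 3 minus 0 days (0.44 to 0.77), and for population at 0 days and at 10 days (-0.60 to -0.36). In late pupae it ran from -0.19 (Las Bocas) to 1.08 for diet and from -0.95 to 0.25 (organ pipe) for population, turning once in each. It also turned under 5 alternatives each for diet at 0 days and population at 3 days, where 0 were called. With a replicate block the population effect in late pupae lost its 1 call (0) and no other count moved by over 1.5 times. Deviations of same-numbered arrays had a median correlation of -0.08 (26 pairs, from -0.66 to 0.59), and 8 pairs exceeded 0.1. Whether some of these pairs share a batch was not tested. The choice itself kept 52 of the 80 in Las Bocas alone, 61 in Punta Prieta alone, 59 after quantile normalization, 71 after centring and 70 without the arrays nearer another stage, and 70 to 80 without single arrays.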
